A study of Mus musculus with 22 samples.

Results

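The bacterial community of the colon was compared between ovalbumin-challenged mice given resveratrol (Ova-res, 4 mice) and naive mice (5 mice), which are 9 of the 22 samples of the series. The mice were taken by their labels, and every listed taxon was used together with its phylum, order and family sums. All were female BALB/c mice aged 6 to 8 weeks, kept in specific pathogen-free housing on normal chow. Ova-res mice carried 3 exposures. They received 250 µg of ovalbumin (OVA, a chicken egg protein used as an allergen) with aluminum hydroxide into the peritoneum on day 0, 50 µg of OVA into the nose on day 7, and 100 mg/kg of resveratrol (RES, a plant polyphenol) in 200 µl of carboxymethyl cellulose by gavage on days 1 to 14. Naive mice are named as such in the labels, but the protocol describes the OVA injection for each mouse and gives naive mice no treatment or gavage of their own. OVA, RES and the gavage therefore cannot be told apart in this comparison. The groups were kept in isolated cages, with no number of mice per cage stated, so cage and treatment cannot be told apart either. Colon contents were flushed out on day 15 and their 16S rRNA genes were sequenced over the V3-V4 regions.

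The mouse colon is dominated by anaerobes of 2 phyla. Bacteroidetes are Gram-negative bacteria with large sets of enzymes for cutting plant and host glycans, and they release mainly acetate and propionate. Firmicutes of the order Clostridiales include the main butyrate producers, and butyrate feeds the cells that line the colon. Smaller groups have their own places, such as Mucispirillum, which lives in the mucus layer, and Lactobacillus, which makes lactic acid.

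The deposited values are fractions of the reads of each mouse in steps of 0.1% of reads. A listed 0 thus stands for less than 0.05%. Read numbers are missing from these values, which leaves the depth unknown and counting intervals out of reach. The 32 listed taxa came from 6 phyla, 10 orders and 20 families (3 of these being an order with no family name), and per mouse they summed to 97.6 to 99.0% of all reads (median 98.4%). Families typical of the intestine summed to 88.5 to 92.3% in each mouse, and none of 14 genera of skin, airway or reagents was listed, so the shares fit the labelled sample. Group means were compared by an exact permutation test (two-sided) over the 126 possible splits of these 9 mice, which cannot give a p below 0.00794, with Benjamini-Hochberg adjustment over the taxa or sums of one rank. Shares are relative, and a higher share of one taxon lowers those of the others.

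As shares of reads, Bacteroidetes rose and Firmicutes fell in Ova-res mice. A rank test, centred log-ratios over the 6 phyla and most omissions of 1 mouse ended this call. Omitting a naive mouse could not have kept it, as the adjusted p for 3 phyla then cannot fall below 0.0571. Without 1 mouse the difference lay between 9.35 and 12.9 percentage points for Bacteroidetes and between -12.5 and -9.1 for Firmicutes. The direct log-ratio of Bacteroidetes to Firmicutes was also higher in Ova-res mice (exact permutation p = 0.0238, unadjusted). Most omissions of 1 mouse took that ratio above 0.05 as well. Bacteroidetes held 66.5, 71.8, 74.0 and 63.2% of reads in Ova-res mice, against 55.9, 52.3, 64.5, 57.1 and 59.3% in naive mice. Of the Ova-res mice, the lowest (63.2%) fell below the highest naive mouse (64.5%), and the other 3 stood above every naive mouse. The mean was 68.9% ± 4.92 (SD, n = 4) in Ova-res and 57.8% ± 4.51 (SD, n = 5) in naive mice, 11.1 percentage points more in Ova-res (exact permutation p = 0.0238, adjusted p = 0.0476 over the 6 phyla). Firmicutes held 30.0, 24.8, 22.9 and 30.8% in Ova-res mice, against 40.1, 44.2, 30.8, 37.4 and 36.7% in naive mice. No Ova-res mouse stood above any naive mouse, with the highest Ova-res and the lowest naive mouse equal. The mean was 27.1% ± 3.87 (SD, n = 4) in Ova-res and 37.8% ± 4.91 (SD, n = 5) in naive mice, an Ova-res minus naive value of -10.7 percentage points (exact permutation p = 0.0238, adjusted p = 0.0476).

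Together these phyla held between 94.0 and 96.9% of reads in each mouse, so their shares are close to a single measure. The ratio of Bacteroidetes to Firmicutes was 2.22, 2.90, 3.23 and 2.05 in Ova-res mice, against 1.39, 1.18, 2.09, 1.53 and 1.62 in naive mice. On the log2 scale the mean ratio was 0.73 higher in Ova-res mice, which is 1.66-fold (exact permutation p = 0.0238). The naive mouse with the highest ratio, naive 3, overlapped the Ova-res mice. Without it the difference was 0.85 on the log2 scale (exact permutation p = 0.0286, the minimum for 4 against 4 mice). Without Ova-res 2 or Ova-res 3 it was 0.67 and 0.62 (exact permutation p = 0.0536 each), and without naive 1, 2, 4 or 5 it was 0.70, 0.64, 0.73 and 0.75 (exact permutation p = 0.0571 each). With the replicate number as a block it was 0.75 (exact permutation p = 0.125, with 4 of 4 pairs higher).

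Deferribacteres, represented by the mucus-dwelling species Mucispirillum schaedleri alone, fell in Ova-res mice. It held 0.2, 0, 0.2 and 0.1% of reads in Ova-res mice, against 0.6, 0.6, 0.4, 0.3 and 0.4% in naive mice. The groups did not overlap, and the gap between the highest Ova-res and the lowest naive mouse was 1 rounding step. The mean was 0.125% ± 0.0957 (SD, n = 4) in Ova-res and 0.46% ± 0.134 (SD, n = 5) in naive mice, a ratio of 0.272 (exact permutation p = 0.0159, adjusted p = 0.0476 over the phyla). As a phylum it passed the test, and as 1 of 32 taxa it did not (adjusted p = 0.152).

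The other phyla did not pass. Proteobacteria held 0.9, 0.9, 1.1 and 1.0% in Ova-res mice, against 1.1, 0.5, 0.3, 0.8 and 0.5% in naive mice (exact permutation p = 0.111, adjusted p = 0.167). Naive mice spanned a wider range here than Ova-res mice. Only naive 1, at 1.1%, reached the Ova-res values, and every other naive mouse stood below every Ova-res mouse. TM7, listed as the single family F16 of very small bacteria that live attached to others, held 0.5, 1.3, 0 and 2.6% in Ova-res mice, against 0.3, 0.8, 0.9, 2.6 and 1.5% in naive mice (exact permutation p = 0.865). Tenericutes, the wall-less bacteria, listed as Anaeroplasma, held 0.8, 0.2, 0.4 and 0% in Ova-res mice, against 0.6, 0, 0.7, 0.1 and 0% in naive mice (exact permutation p = 0.778). In both phyla the mice of each group covered nearly the same range.

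Of the 6 phyla, 3 passed the adjusted test (50%). Bacteroidetes and Firmicutes, close to a single measure, were counted there as separate tests, so the 3 calls are not independent. Bacteroidales and Deferribacterales, with the same values as their phyla, had an adjusted p of 0.0794 over the 10 orders (exact permutation). The phylum result also rested on few mice and on the scale. With centred log-ratios none passed, the differences being 0.66 for Bacteroidetes, -0.07 for Firmicutes and -2.04 for Deferribacteres (adjusted p = 0.175, 0.833 and 0.0952, exact permutation), and with an exact rank-sum test the adjusted p was 0.0635 for each. Centred log-ratios are taken against the mean of all 6 phyla, which includes rare phyla listed at 0 in some mice. The value for Firmicutes is thus not its change against Bacteroidetes alone, for which the log2 ratio differed by 0.73. With Ova-res 4 left out all 3 phyla still passed (adjusted p = 0.0357), and with any other Ova-res mouse left out none did (adjusted p between 0.0714 and 0.143, exact permutation). With a naive mouse left out, the adjusted p cannot fall below 0.0571 for 3 phyla. With the replicate number as a block over mice 1 to 4, the 4 pairs all moved the same way for each of the 3 phyla (Bacteroidetes 11.4 percentage points higher, Firmicutes -11.0 and Deferribacteres -0.35), but 16 arrangements allow no p below 0.125 (exact permutation p = 0.125, adjusted p = 0.25 each).

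**Figure D1:**
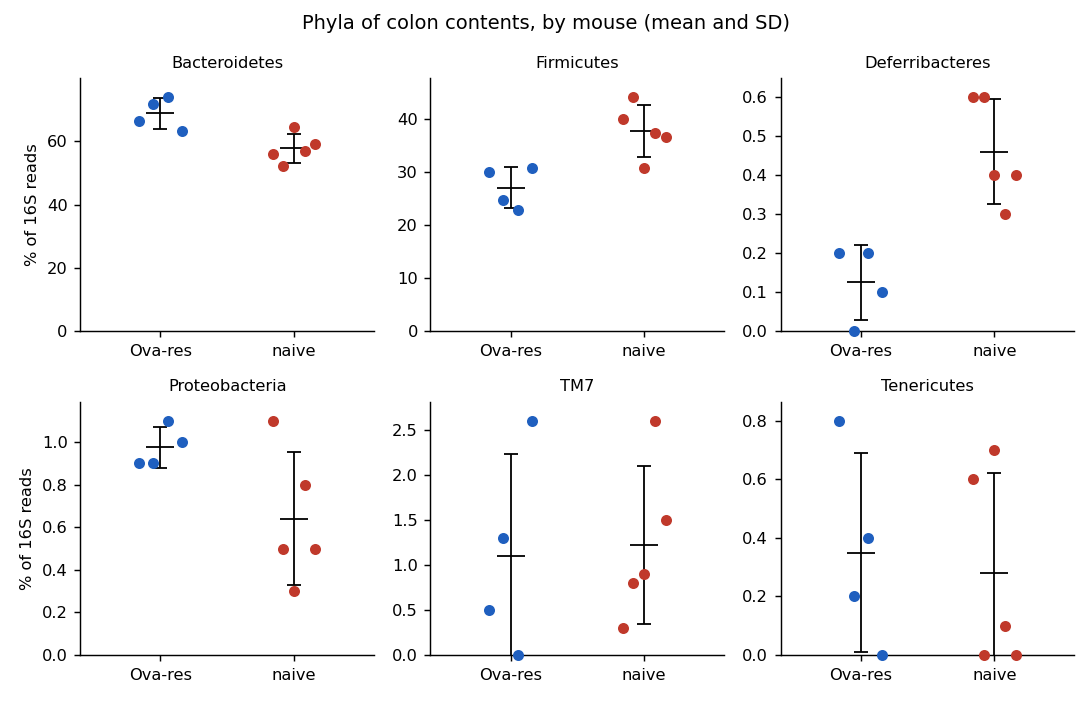
Share of 16S reads (%, linear axis from 0) of each of the 6 phyla in Ova-res (blue, left) and naive mice (red, right), with 1 point per mouse and the mean and SD as black bars, cut at 0 where they would reach below it. Bacteroidetes lie higher and Firmicutes lower in Ova-res mice apart from the naive mouse at 64.5 and 30.8%, and the Deferribacteres points do not overlap. In Proteobacteria only naive 1 (1.1%) reaches the Ova-res points, and the other naive mice lie below them. TM7 and Tenericutes overlap widely.

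The order sums repeated the phyla. Bacteroidales, the single order of Bacteroidetes, had the values of that phylum. Clostridiales held 26.3% ± 4.09 (SD, n = 4) in Ova-res and 36.1% ± 5.44 (SD, n = 5) in naive mice (exact permutation p = 0.0317), Lactobacillales 0.425% ± 0.377 and 1.44% ± 0.740 (exact permutation p = 0.0476) and CW040, the order of F16, 1.10% ± 1.13 and 1.22% ± 0.881 (exact permutation p = 0.865). No order of the 10 passed after adjustment (0%), since 5 orders with an unadjusted p under 0.05 gave adjusted p-values of 0.0794 and above. No family of the 20 passed either (0%), with a smallest adjusted p of 0.136 and 7 families (35%) under 0.05 before adjustment.

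Among the families, S24-7, glycan-degrading Bacteroidales that dominate many mouse colons, was the most abundant in every mouse. It held 29.8, 39.5, 40.1 and 36.6% in Ova-res mice, against 30.7, 26.9, 24.0, 29.0 and 33.9% in naive mice. Of the Ova-res mice 3 stood above every naive mouse and Ova-res 1 lay inside the naive range. The mean was 36.5% ± 4.72 (SD, n = 4) in Ova-res and 28.9% ± 3.75 (SD, n = 5) in naive mice, 7.60 percentage points apart (exact permutation p = 0.0476, adjusted p = 0.136 over families). Bacteroidaceae averaged 7.28% ± 2.66 in Ova-res and 4.42% ± 1.03 in naive mice (exact permutation p = 0.0397, adjusted p = 0.136). The other large families of the phylum had close means. Prevotellaceae held 9.40% ± 2.40 in Ova-res and 9.82% ± 1.44 in naive mice, Rikenellaceae 8.30% ± 1.05 and 9.14% ± 3.85, and Odoribacteraceae 2.38% ± 1.67 and 2.34% ± 1.00 (exact permutation p = 0.754, 0.937 and 0.968).

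Within Firmicutes the larger families all had lower means in Ova-res mice. Clostridiales with no family averaged 15.8% ± 2.21 in Ova-res and 21.3% ± 3.78 in naive mice (exact permutation p = 0.0397, adjusted p = 0.136). Ruminococcaceae, a family of fibre-degrading and butyrate-making bacteria, averaged 7.78% ± 2.26 in Ova-res and 10.5% ± 1.15 in naive mice (exact permutation p = 0.0635). Lachnospiraceae, the other large family of butyrate producers, averaged 2.48% ± 0.892 in Ova-res and 4.06% ± 1.96 in naive mice (exact permutation p = 0.183). The 2 lowest Ruminococcaceae shares, 5.2 and 6.8%, were in Ova-res 3 and 2, while the naive mice spanned 9.5 to 12.1%.

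**Figure D2:**
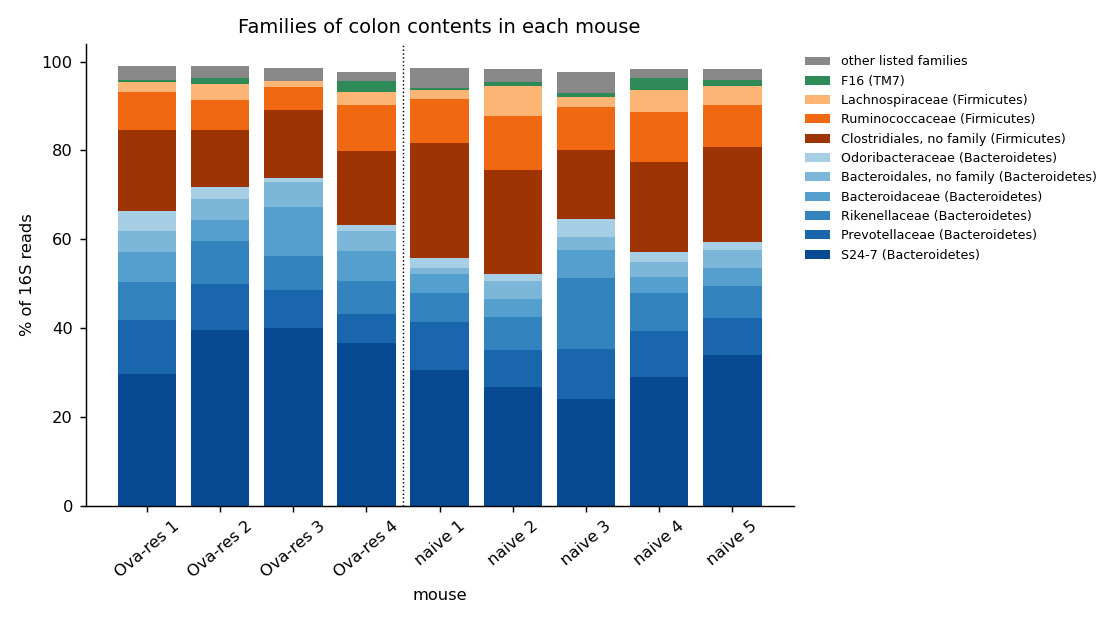
Stacked shares of 16S reads (%, axis from 0) of the families of each mouse, with the 4 Ova-res mice left of the dotted line and the 5 naive mice right of it, Bacteroidetes in blues, Firmicutes in oranges and the rest in green and grey. The blue families, with Porphyromonadaceae (at most 0.3%, drawn in the grey), sum to between 63.2 and 74.0% in Ova-res and between 52.3 and 64.5% in naive mice.

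At the level of single taxa, no difference passed adjustment. All 32 taxa were tested together with limma on log2(percent + 0.01), a scale on which the size of a change near 0 depends on the value added, and 0 of them (0%) had an adjusted p under 0.05, against 5 (15.6%) before adjustment. The smallest limma adjusted p was 0.161. The exact permutation test gave the same count of 0 (0%) after adjustment, with a smallest adjusted p of 0.152, and 8 taxa (25%) with an unadjusted p under 0.05. Of these 8, 4 had a higher and 4 a lower mean in Ova-res mice. The groups did not overlap for 2 taxa (6.25%), Mucispirillum schaedleri and the Bacteroidales row with no lower rank. Over all taxa 14 had a higher and 18 a lower mean in Ova-res mice.

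Of the 4 higher taxa, 3 were Bacteroidales. Bacteroides, a genus that digests both dietary and mucin glycans (here without the species listed apart from it), held 5.0, 3.1, 8.4 and 4.8% in Ova-res mice, against 3.2, 1.3, 3.0, 1.4 and 2.2% in naive mice. Its share was higher than in any naive mouse in 3 Ova-res mice, and Ova-res 2 lay just under naive 1. The mean was 2.40 times the naive mean (exact permutation p = 0.0159, adjusted p = 0.152; limma log2 change 1.26 ± 0.42 SE, adjusted p = 0.187). The Bacteroidales row with no lower rank held 4.7, 4.7, 5.6 and 4.6% in Ova-res mice, against 1.4, 4.2, 3.0, 3.2 and 4.1% in naive mice. Every Ova-res mouse stood above every naive mouse (exact permutation p = 0.0238, adjusted p = 0.152; limma log2 change 0.71 ± 0.36 SE, adjusted p = 0.260). S24-7, which has no row below the family, was the third (limma log2 change 0.34 ± 0.24 SE, adjusted p = 0.379).

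The remaining higher taxon was Sutterella, a Gram-negative genus of Proteobacteria that lives in the intestine. It held 0.4, 0.5, 0.7 and 0.3% in Ova-res mice, against 0.1, 0.1, 0.1, 0.3 and 0.2% in naive mice. Only Ova-res 4 and naive 4 met, both at 0.3%. Its mean was 2.97 times the naive mean (exact permutation p = 0.0238, adjusted p = 0.152), and its limma log2 change of 1.59 ± 0.43 SE had the smallest adjusted p of all taxa (0.161).

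The 4 lower taxa were Mucispirillum schaedleri and 3 Firmicutes. The more abundant of the 2 Clostridiales rows with no lower rank held 18.0, 12.7, 15.3 and 16.5% in Ova-res mice, against 25.6, 22.2, 15.4, 20.0 and 21.4% in naive mice. Naive 3, at 15.4%, was the single naive mouse inside the Ova-res range (exact permutation p = 0.0397, adjusted p = 0.190; limma log2 change -0.41 ± 0.26 SE, adjusted p = 0.333). Lactobacillus held 0.1, 0.8, 0.7 and 0.1% in Ova-res mice, against 1.8, 1.5, 2.3, 0.3 and 1.3% in naive mice. Apart from naive 4, at 0.3%, every naive mouse stood above every Ova-res mouse (exact permutation p = 0.0476, adjusted p = 0.190; limma log2 change -2.06 ± 0.84 SE, adjusted p = 0.238). Ruminococcus, whose members break down plant fibre, held 0.8, 0.5, 0.4 and 0.7% in Ova-res mice, against 0.8, 1.3, 0.9, 1.2 and 1.1% in naive mice, touching at 0.8% (exact permutation p = 0.0238, adjusted p = 0.152; limma log2 change -0.84 ± 0.31 SE, adjusted p = 0.187). For Mucispirillum schaedleri the limma log2 change was -2.45 ± 0.87 SE (adjusted p = 0.187). It was -1.42 without Ova-res 2, the mouse listed at 0, and -1.41 with 0.1% added in place of 0.01%, with no call in either case.

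**Figure D3:**
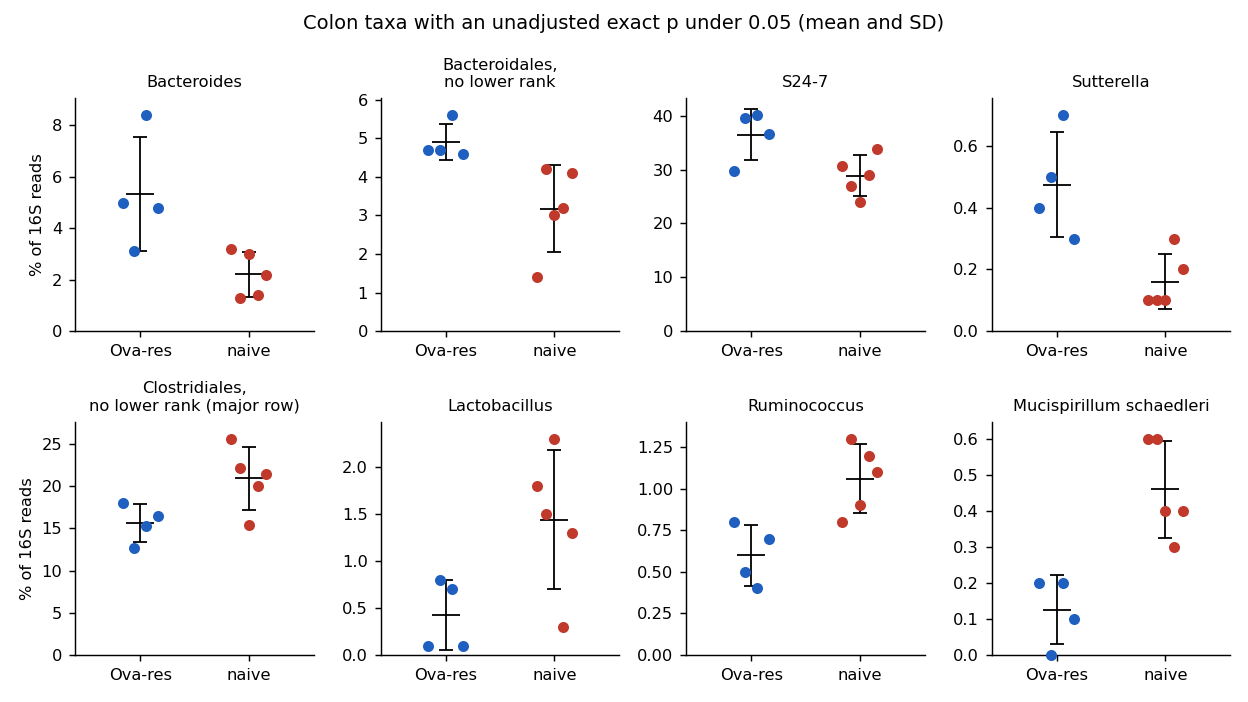
Share of 16S reads (%, linear axis from 0) of the 8 taxa with an unadjusted exact permutation p under 0.05, with 1 point per mouse, Ova-res (blue) left and naive (red) right, and the mean and SD as black bars. The upper row shows the 4 taxa with a higher and the lower row the 4 with a lower mean in Ova-res mice, and only Mucispirillum schaedleri and the Bacteroidales row have no overlap between groups.

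Bacteroides acidifaciens, a mouse gut species of the genus Bacteroides, did not differ detectably in these reads. It held 1.7, 1.6, 2.6 and 1.9% in Ova-res mice, against 1.0, 2.6, 3.2, 2.2 and 2.0% in naive mice. The Ova-res values all lay inside the naive range (exact permutation p = 0.627). The limma fold change was 0.932, with a 95% interval of 0.515 to 1.69.

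By the size of the limma change, further taxa stood among the 5 largest rises and the 5 largest falls of the taxa averaging 0.1% or more, with wide intervals. On the rising side these were the less abundant Lachnospiraceae row (log2 change 1.51 ± 1.06 SE), the Erysipelotrichaceae row, a Firmicutes family outside Clostridiales (1.03 ± 0.77 SE), and the Desulfovibrionaceae row with no lower rank (1.01 ± 0.92 SE). Without naive 5 the change of that row was 0.23, and the sum of its family, whose members reduce sulfate, had a lower mean in Ova-res mice (0.425% ± 0.171) than in naive mice (0.48% ± 0.311, exact permutation p = 0.857). On the falling side they were F16 (-1.43 ± 1.51 SE, and 0.30 without Ova-res 3), Coprococcus (-1.30 ± 0.84 SE, and -0.36 without Ova-res 3) and the more abundant Lachnospiraceae row (-0.87 ± 0.41 SE). Their limma adjusted p-values lay between 0.246 and 0.514. The more abundant Lachnospiraceae row held 1.6, 2.1, 1.2 and 2.2% in Ova-res mice, against 2.0, 5.9, 1.9, 4.2 and 3.4% in naive mice (exact permutation p = 0.0952), and the groups overlapped at about 2%. In the less abundant row, Ova-res 2 alone held 1.1%, and every other Ova-res mouse 0.2% or less.

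**Figure D4:**
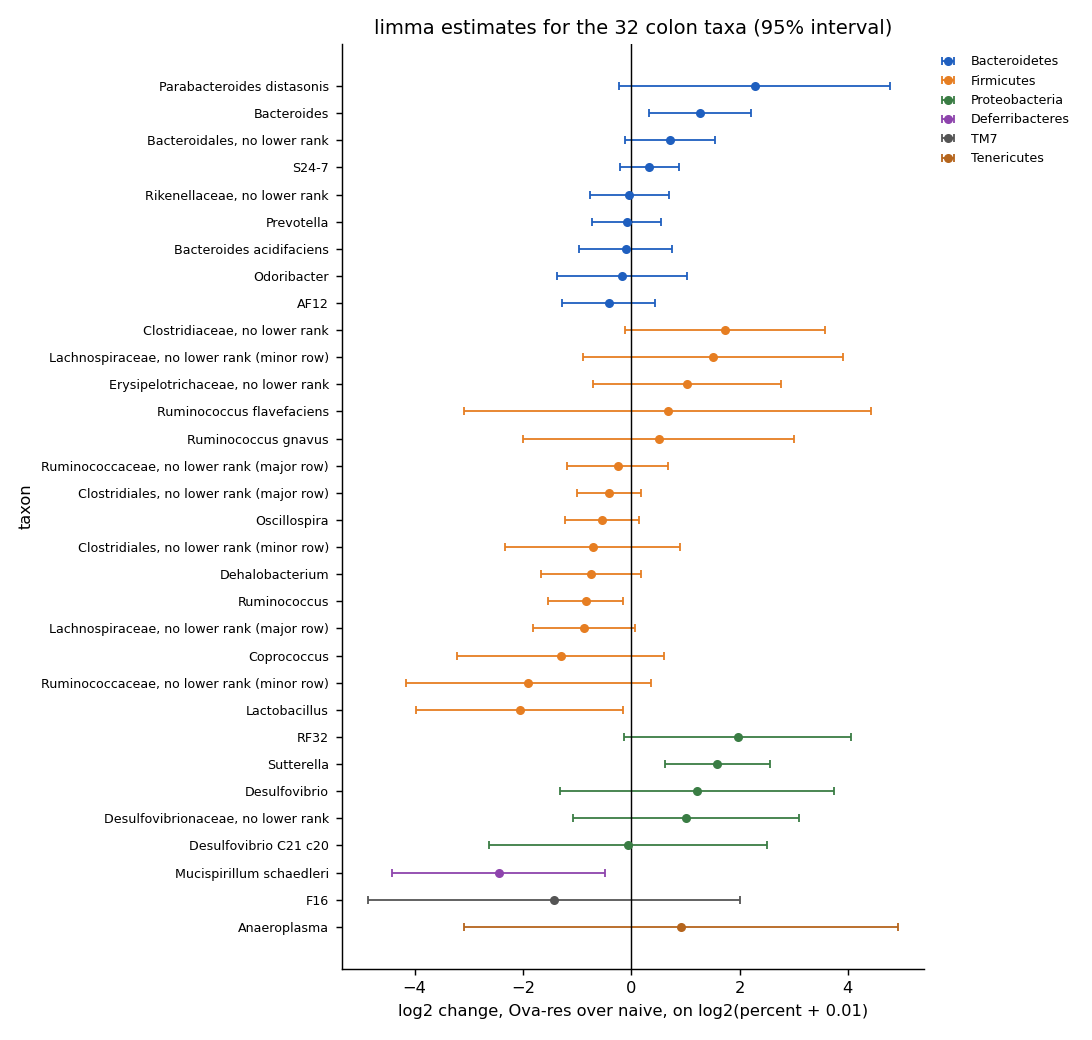
limma log2 change of Ova-res over naive mice on the log2(percent + 0.01) scale for the 32 taxa, with 95% intervals as horizontal bars, coloured by phylum and ordered by the change within each phylum. The intervals of 5 taxa (Bacteroides, Sutterella, Ruminococcus, Lactobacillus and Mucispirillum schaedleri) do not reach 0, and no taxon passes after adjustment.

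The taxa of a phylum did not all move with its sum. In Bacteroidetes 5 of the 9 taxa had a higher mean in Ova-res mice and 4 a lower one. These 9 make up the list of polysaccharide-degrading Bacteroidales. Their median limma log2 change was -0.04, against -0.07 over all 32 taxa, although their sum was 11.1 percentage points higher, since S24-7, Bacteroides and the Bacteroidales row carried the difference. The mean of Odoribacter, a butyrate producer of this phylum, was close in both groups (2.38 and 2.34%) and its limma log2 change was -0.17. In Firmicutes 4 taxa had a higher and 11 a lower mean (median log2 change -0.54), and in Proteobacteria 4 had a higher and 1 a lower mean (median log2 change 1.21).

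The butyrate-associated list held 10 taxa, which were Odoribacter and every row of Lachnospiraceae and Ruminococcaceae. Members were taken by name, so the list does not show that each of them makes butyrate. Of these 10 taxa, 3 had a higher and 7 a lower mean in Ova-res mice, against 14 higher and 18 lower of all 32 taxa. Their shares summed to 12.6% ± 3.57 (SD, n = 4) in Ova-res and 16.9% ± 2.51 (SD, n = 5) in naive mice, with ranges of 7.5 to 15.5% and 14.4 to 20.4%, and their median log2 change was -0.40. None passed limma after adjustment, and 1 of the 10, Ruminococcus, had an unadjusted exact permutation p under 0.05, against 8 of all 32 taxa (25%). Oscillospira, a slow-growing genus of Ruminococcaceae and the largest of them, held 6.2, 3.5, 3.4 and 6.5% in Ova-res mice, against 7.6, 6.5, 7.2, 7.1 and 5.8% in naive mice (exact permutation p = 0.0556). The mucus-associated list held Bacteroides, Bacteroides acidifaciens and Mucispirillum schaedleri, of which 1 had a higher and 2 a lower mean, and its sum of 7.40% ± 2.73 in Ova-res and 4.88% ± 1.02 in naive mice held 5.33 and 2.22% of the Bacteroides row and 1.95 and 2.20% of Bacteroides acidifaciens. Lactobacillus was the single lactic acid genus listed. The wall-less or reduced-genome list, Anaeroplasma and F16, summed to 1.45% ± 0.904 in Ova-res and 1.50% ± 0.758 in naive mice, with 1 taxon higher and 1 lower.

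Several rare taxa were listed in some mice only, and 14 of the 32 were at 0 in at least 1 mouse. RF32, an uncultured order of Proteobacteria, held 0.2 and 0.1% in Ova-res 2 and 4 and was listed at 0 in the other 7 mice. The Clostridiaceae row held 0.1% in Ova-res 2 and 4 and was likewise listed at 0 in every naive mouse. Parabacteroides distasonis, a Bacteroidales species, held 0.1, 0.1, 0.3 and 0% in Ova-res mice, against 0, 0.1, 0, 0 and 0% in naive mice (exact permutation p = 0.167). These shares are 1 to 3 rounding steps, and no fold change is given.

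To separate a shift of a phylum from a shift inside it, each taxon was also taken as a share of its own phylum. Of 29 taxa in phyla with more than 1 listed taxon, none passed after adjustment (0%, smallest adjusted p = 0.430) and 1 (3.45%) had an unadjusted exact permutation p under 0.05. This was Bacteroides, with 7.52, 4.32, 11.4 and 7.59% of Bacteroidetes reads in Ova-res mice, against 5.72, 2.49, 4.65, 2.45 and 3.71% in naive mice (mean 7.70% ± 2.88 and 3.80% ± 1.41, exact permutation p = 0.0397, adjusted p = 0.430). S24-7 made up 53.0% ± 5.68 of Bacteroidetes reads in Ova-res and 50.3% ± 7.77 in naive mice (exact permutation p = 0.571). The more abundant Clostridiales row made up 57.9% ± 7.01 of Firmicutes reads in Ova-res and 55.2% ± 5.90 in naive mice (exact permutation p = 0.532), so that its share of all reads and its share of its phylum differed in opposite directions. Within Proteobacteria, Sutterella made up 48.4% ± 14.6 in Ova-res and 28.0% ± 13.1 in naive mice (exact permutation p = 0.0794, adjusted p = 0.430). As families, Desulfovibrionaceae made up 43.5% ± 17.5 of Proteobacteria reads in Ova-res and 72.0% ± 13.1 in naive mice (exact permutation p = 0.0159, adjusted p = 0.270 over 17 families, of which 1 (5.88%) was under 0.05 before and none (0%) after adjustment). Proteobacteria held about 1% of reads or less, so these shares rest on few rounding steps.

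Whole communities were compared by Bray-Curtis distance, which is 0 for identical and 1 for wholly different communities. The median distance was 0.130 within Ova-res mice (6 pairs), 0.141 within naive mice (10 pairs) and 0.182 between the groups (20 pairs). The group accounted for 35.6% of the variation in distances (permutational multivariate analysis of variance, pseudo-F 3.87, exact permutation p = 0.0159). With Aitchison distances, which compare log-ratios, it was 19.8% and with Jaccard distances, which compare presence and absence, 22.6%, and neither passed (exact permutation p = 0.0635 and 0.0873). With square-root shares, family sums or the most abundant taxon left out it was 30.2, 36.0 and 29.4% (exact permutation p = 0.00794, 0.0159 and 0.0317). With the replicate number as a block over mice 1 to 4 it was 39.5% (exact permutation p = 0.125, the smallest possible). Without Ova-res 3 it was 29.6% and no longer passed (exact permutation p = 0.0536). Without naive 1, naive 2 or naive 4 it was 36.5, 33.7 and 34.6% (exact permutation p = 0.0571 each), and without naive 3 it was 45.2% (exact permutation p = 0.0286).

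The groups were not fully apart. Ova-res 1 was nearest to naive 4, Ova-res 4 was nearest to naive 5, and naive 3 was nearest to Ova-res 1. Naive 3 also lay farthest from its own group, with a mean distance of 0.192 to the other naive mice, and held 14.6% of the Rikenellaceae row, where the other naive mice held 6.0 to 7.7%. Of the mean distance between Ova-res and naive mice, Bacteroidetes taxa made up 54.7% and Firmicutes taxa 38.4%. S24-7 alone made up 22.3%, the more abundant Clostridiales row 15.8%, Bacteroides 8.62%, Rikenellaceae 6.36%, Oscillospira 5.74% and Prevotella 5.62%. Of these, Rikenellaceae and Prevotella had close group means.

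**Figure D5:**
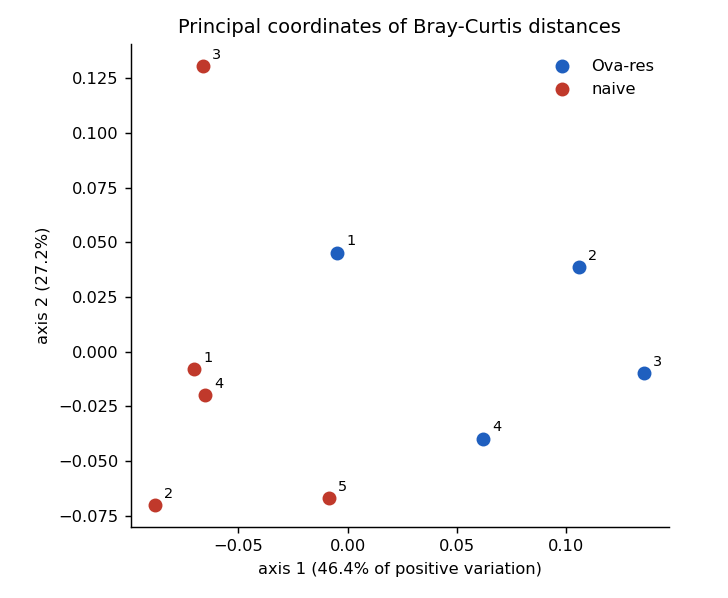
Principal coordinates of Bray-Curtis distances between the 9 colon communities, axis 1 holding 46.4% and axis 2 27.2% of the positive variation, with Ova-res mice in blue, naive mice in red and replicate numbers beside the points. All Ova-res mice lie right of every naive mouse on axis 1, but Ova-res 1 (-0.0049) and naive 5 (-0.0085) lie close together on it. Naive 3 stands apart on axis 2.

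Diversity did not differ beyond the spread of the mice. The Shannon index of the listed taxa was 2.25, 2.18, 2.03 and 2.18 in Ova-res mice, against 2.10, 2.32, 2.37, 2.28 and 2.15 in naive mice, a mean of 2.16 ± 0.0920 (SD, n = 4) in Ova-res and 2.25 ± 0.112 (SD, n = 5) in naive mice (exact permutation p = 0.270). The inverse Simpson index averaged 5.30 ± 0.738 in Ova-res and 6.23 ± 0.932 in naive mice (exact permutation p = 0.143). Between 26 and 29 taxa were listed above 0 in Ova-res mice and between 25 and 28 in naive mice (exact permutation p = 0.135).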

How the data were processed

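The authors amplified the V3-V4 regions of 16S rRNA genes from colon contents, assigned the reads to taxa, and deposited per taxon and mouse a fraction of reads with 3 decimals. The study names the Nephele platform for reads of lung tissue. The tool used for colon reads, the taxonomy and the depth are not given in the sources that were used. The Ova-veh mice and the lung samples were not used. Each sample was taken as 1 mouse. For Clostridiales, Lachnospiraceae and Ruminococcaceae, 2 rows without a lower rank share each name, and these were treated separately, called more and less abundant.

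Fractions were turned into percent and summed by rank. Exact permutation tests, permutational multivariate analysis of variance (PERMANOVA) on listed taxa scaled to 100%, and plots used Python 3.11.15 with numpy 2.4.6, scipy 1.17.1, pandas 2.3.3 and matplotlib 3.10.9. limma 3.58.1 in R 4.3.3 (lmFit and eBayes, no trend) was fitted to the 2 groups on log2(percent + 0.01), with Benjamini-Hochberg adjustment and a threshold of 0.05. The tests were checked on simulated data. In 100 simulated tables with 4 of 32 taxa changed, limma recovered 21.8% of 2-fold and 83% of 4-fold changes. The changed taxa were drawn from the more abundant taxa only. Recovery for rarer taxa, such as Sutterella and Mucispirillum schaedleri, was therefore not tested. Each taxon was simulated independently, without the constraint that shares sum to 100%.

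Named were all phyla, orders and families of at least 1% mean, taxa without overlap or with an unadjusted exact permutation p under 0.05, the 5 largest rises and falls by limma among taxa of at least 0.1% mean, Bacteroides acidifaciens, Mucispirillum schaedleri and the list members. Members and lists were chosen with earlier results of these data known. Deviations from the group means had an r of 0.146 to 0.371 between samples of the same replicate number (numbers 1 to 4). Between unlike numbers r was -0.515 to 0.338, so the ranges overlapped. Fits with the number as a block were added as an alternative. The labels state no link between samples of the same number, and 2 of the 4 Ova-res mice correlated best with their own number. Other alternatives were distances, pseudocounts, filters, centred log-ratios, a rank test, summed rows and leaving out each mouse.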

Additional observations from a re-analysis of the deposited data

Results flagged for a closer look

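In 15 of 86 groups of mice checked (the 2 groups for each of 43 taxa, sums or measures), the highest or lowest mouse lay far from the rest by Dixon's criterion. Chance meets it in about 1 in 20 groups of continuous values with a normal spread. These shares are rounded and often tied, and some sums repeat a row, so the count of 15 cannot be set against that rate. Naive 3 stood out for the Rikenellaceae row (14.6%, the next naive mouse 7.7%), the Rikenellaceae family sum (15.9%, next 8.6%), the Bacteroidaceae sum (6.2%, next 4.2%) and the Erysipelotrichaceae row (0.8%, next 0.2%). Naive 2 stood out for the less abundant Clostridiales row (1.2%, next 0.3%), Ruminococcus flavefaciens (0.3%, the other naive mice at 0), Parabacteroides distasonis (0.1%, the others at 0) and the less abundant Ruminococcaceae row (0%, the others at 0.1%). Naive 1 held 0.4% of the Desulfovibrionaceae row, and the next naive mouse 0.1%.

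Ova-res 2 stood out for Ruminococcus flavefaciens (1.0%, the other Ova-res mice at 0), the less abundant Lachnospiraceae row (1.1%, next 0.2%), the Desulfovibrionaceae row (0.1%, the others at 0.2%) and Desulfovibrio (0%, the others at 0.1%). Ova-res 3 held 5.6% of the Bacteroidales row with no lower rank, and the next Ova-res mouse 4.7%. Ova-res 4 held 0.1% of the less abundant Ruminococcaceae row, with the other Ova-res mice at 0. Of these values, 5 differ from the nearest mouse by 1 rounding step of 0.1%.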

How the results depend on the processing

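Depth is unknown, and shares under 0.1% are at the rounding step. limma called 0 taxa, and 1 (Bacteroides, log2 change 1.26, adjusted p = 0.0435) with trended and robust variances. The block changed no call of limma. PERMANOVA gave 19.8% with Aitchison (exact permutation p = 0.0635) and 22.6% with Jaccard distances (p = 0.0873, exact permutation), 39.5% with the replicate block, and 29.6 to 45.2% without 1 mouse. It still passed with square-root shares (30.2%), with family sums (36.0%) and without the most abundant taxon (29.4%). The count of phyla passing was 0 with centred log-ratios, 0 with an exact rank-sum test, 0 with the replicate block and 0 to 3 without 1 mouse. The block allows no exact permutation p below 0.125. Without a naive mouse the adjusted p cannot fall below 0.0571 for 3 phyla, so neither setting could have kept the calls. With centred log-ratios the differences were 0.66 for Bacteroidetes, -0.07 for Firmicutes and -2.04 for Deferribacteres (exact permutation, adjusted p = 0.175, 0.833 and 0.0952). These are taken against the mean of all phyla, rare ones included. The log2 ratio of Bacteroidetes to Firmicutes was 0.75 higher with the replicate block (exact permutation p = 0.125) and 0.62 to 0.85 higher without 1 mouse (exact permutation p = 0.0179 to 0.0571). Without 1 mouse the difference ranged from -0.62 to 0.247 percentage points for TM7, from -0.08 to 0.187 for Tenericutes, and the limma log2 change from -2.38 to 0.30 for F16 and from -0.36 to 0.057 for Bacteroides acidifaciens. Without changing sign it ranged from -2.89 to -1.42 for Mucispirillum schaedleri, from -1.83 to -0.36 for Coprococcus, from 0.23 to 1.56 for the Desulfovibrionaceae row, from 0.69 to 1.94 for the less abundant Lachnospiraceae row and from 0.80 to 1.62 for the Erysipelotrichaceae row. With 0.001 and 0.1% added, Mucispirillum schaedleri changed by -3.31 and -1.41. As shares of the own phylum, the Desulfovibrionaceae row (-2.56 percentage points) and the more abundant Clostridiales row (2.73) reversed. For the 15 named taxa, 193 values were taken under other pseudocounts, centred log-ratios, shares of the own phylum and omissions of 1 mouse. Of these, 189 kept their direction and their side of the threshold, the other 4 being the reversals of taxa given here. The trended and robust fit, in which Bacteroides passed, is not among them. The causes were not tested.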
